A study of Zea mays with 24 samples.

Results

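Leaf primordia of the maize mutant lg1-R were compared with those of their wild-type siblings at plastochron 6 (P6, the sixth primordium counted outward from the shoot apex). The comparison rests on 6 of the 24 libraries of the study, chosen by their genotype and tissue labels. The tissues used below all carry the cultivar label B73. The first is the P6 region 400 to 900 µm from the leaf base through all cell layers, with 3 lg1-R libraries and 3 wild-type libraries. The second is wild-type P7 tissue through all cell layers (9 libraries, 3 each of ligule, blade and sheath), where the ligule piece was a rectangle 100 µm high on the preligule band and the pre-blade and pre-sheath pieces lay 50 µm above and below it. The third is the adaxial L1 of the same P7 regions, that is, epidermis of the leaf's upper face (9 libraries, 3 each). Each library pooled 5 to 6 plants, with polyadenylated RNA amplified in 2 rounds from laser-microdissected cells. The stated purpose of the P6 comparison was to find genes that act downstream of LG1.

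A maize leaf has a distal blade and a proximal sheath, and the ligule is a fringe of epidermal origin that grows out at their boundary from a strip of cells called the preligule band. The gene lg1 encodes an SBP-box transcription factor, and plants that lack its function form no ligule or only a rudimentary one and lack the auricles beside it. The genes lg2, a bZIP transcription factor gene, and the KNOX genes lg3 and lg4 were also named for mutants with a disturbed boundary.

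The P6 libraries held total counts of 16.7, 15 and 41 (in units of 1e6) in lg1-R, against 34.2, 16 and 25.5 in wild type. Levels below are FPKM (fragments per kilobase of transcript and per 1e6 mapped fragments) as deposited, and 3 counts in a P6 library equal 0.0732 to 0.2 counts per 1e6. The leaf gene yab14, a YABBY gene of leaf primordia, stood at 29, 33.7 and 47.1 FPKM in lg1-R, against 57.2, 40.9 and 29.4 FPKM in wild type, and the meristem gene kn1 stayed at or below 0.538 FPKM in all 6 libraries, so the samples carried leaf markers and little of this meristem marker. Wild-type replicate 1 had the lowest mean correlation with its own group (0.968, against 0.979 and 0.975 in the other wild-type libraries), and lg1-R replicate 3 was the deepest library, so results are also given without them where that matters. These are bulk samples, in which fewer cells of a type and less RNA per cell cannot be told apart.

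The mutated gene itself was not lower in the mutant. Transcripts of lg1 (GRMZM2G036297) stood at 1.59, 1.42 and 2.33 FPKM in lg1-R, against 0.465, 1.77 and 0.998 FPKM in wild type. The ranges overlap, and the highest library is a mutant one. The log2 fold change of lg1-R over wild type was 0.89 (SE 0.43), with an adjusted p of 0.78 (quasi-likelihood test of edgeR, Benjamini-Hochberg method, as for every adjusted p below unless DESeq2 is named). A mutant allele need not lower its own transcript, so this level does not check the genotype labels, which were used as given. In P7 tissue of all layers, lg1 stood at 1.38, 11.7 and 5.17 FPKM in the ligule, at or below 0.119 FPKM in blade pieces and at or below 0.211 FPKM in sheath pieces. It was called higher in the ligule there (log2 fold change 6.28, SE 0.75, adjusted p = 0.00034) and in the adaxial L1 (5.07, SE 0.63, adjusted p = 0.00024).

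The other known boundary genes also showed no called difference at P6. The bZIP gene lg2 (GRMZM2G060216) averaged 6.62 ± 3.59 FPKM in lg1-R and 8.23 ± 1.05 FPKM in wild type (SD, n = 3 each), with a log2 fold change of -0.24 (SE 0.28, adjusted p = 0.93). The values for lg3 (0.33, SE 0.69), for lgn (-0.16, SE 0.36), named for the liguleless narrow mutant, and for rs2 (0.21, SE 0.23), a MYB repressor of KNOX genes, were each smaller than their SE. The SBP-box gene tga1 (GRMZM2G101511) stood at 0.441, 0 and 0.699 FPKM in lg1-R, against 1.07, 0.776 and 0.777 FPKM in wild type. Its libraries do not overlap, but the difference was not called (log2 fold change -1.04, SE 0.66, adjusted p = 0.86). In P7 tissue it was higher in the ligule than elsewhere, both in all layers (4.2, SE 0.47, adjusted p = 0.00021) and in the L1 (3.55, SE 0.52, adjusted p = 0.00085). The KNOX genes lg4 (1 count over the 3 lg1-R libraries, 0 in wild type) and kn1 (26 and 14 counts), the WOX gene ns1 (11 and 2 counts) and the NAC boundary gene CUC2 (1 and 10 counts) were too low to test. For CUC2 the ratio of wild type over lg1-R was 9.46, with a 95% interval of 1.35 to 411 that covers counting error only. At P7, ns1 and CUC2 had counts in the ligule (2.51 ± 1.62 and 1.46 ± 0.526 FPKM) and 0 counts in blade and sheath of all layers. By the P6 counts above, the P6 tissue held little of these transcripts in either genotype.

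Across the genome, 1 of 21249 tested genes passed an adjusted p of 0.05 (0.00471%), and it was higher in lg1-R. No gene (0%) passed as lower. At an adjusted p of 0.1 there were 12 genes with higher values (0.0565%) and 18 with lower values (0.0847%). At an unadjusted p below 0.05 there were 793 genes with higher values (3.73%) and 608 with lower values (2.86%) in lg1-R, 1401 in all (6.59%), and the libraries of the genotypes did not overlap for 1031 genes with higher values (4.85%) and 1078 with lower values (5.07%). The count depends on the method: DESeq2 called 82 genes as higher (0.386%) and 66 as lower (0.311%), and edgeR with no filter on low counts called 254 as higher and 228 as lower. The genes described below are therefore a ranking by p within each direction, and their P6 values are a description of what placed them there. Their levels in the P7 libraries were independent of the ranking.

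The called gene, GRMZM2G095725, has no name in the reference table. It stood at 23.3, 22.4 and 29.1 FPKM in lg1-R, against 5.08, 5.28 and 8.29 FPKM in wild type, and the lowest mutant library lies well above the highest wild-type one. Its log2 fold change was 2.1 with an SE of 0.22, and the gene rose past the threshold (adjusted p = 0.019). The call was lost when lg1-R replicate 1 or 2 or wild-type replicate 1 or 2 was left out, in the fit of all 24 libraries and with limma and no filter, while its log2 fold change stayed between 1.86 and 2.34 in the alternatives run.

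The 12 genes ranked first among those with lower values in lg1-R had log2 fold changes of -1.3 to -5.03 and an adjusted p of 0.082, so none was called by edgeR. DESeq2 called all 12, against 0.311% of all genes tested, but from the same libraries that set the ranking, so its calls are not independent of it. Among them, glu1 (GRMZM2G016890), which encodes a beta-glucosidase that releases defence compounds from their glucosides, stood at 0.453, 0.641 and 2.54 FPKM in lg1-R, against 48.5, 12.7 and 12.8 FPKM in wild type (log2 fold change -4.16, SE 0.67). The lowest wild-type library lies well above the highest mutant one, and wild-type replicate 1 stands above the other two. Maize has a close paralog of glu1 with which reads could be shared, so its count is less certain. The galactinol synthase gene gols2 (GRMZM5G872256), of raffinose sugar synthesis, stood at 0.13, 0.0486 and 0.539 FPKM in lg1-R, against 3.42, 2.69 and 2.18 FPKM in wild type (-3.23, SE 0.54). TIFY4 (GRMZM2G445634), from the TIFY family that includes the JAZ repressors of jasmonate signalling, stood at 7.75, 14.2 and 8.07 FPKM in lg1-R, against 118, 71.8 and 31.3 FPKM in wild type (-2.8, SE 0.45). Neither of these genes shows overlap between the genotypes, which was a condition for the choice of all 12.

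The other 9 genes of this group have no name in the reference table, and their P6 libraries do not overlap either, by the same condition. GRMZM2G366873 had the largest difference, with 0.0737, 0.22 and 0.0505 FPKM in lg1-R, against 5.6, 2.95 and 1.59 FPKM in wild type (log2 fold change -5.03, SE 0.65). GRMZM2G145374 stood at 0, 0 and 0.0882 FPKM in lg1-R, against 1.31, 1.26 and 1.1 FPKM in wild type (-4.61, SE 0.66). GRMZM2G004106 stood at 0.358, 0 and 0.414 FPKM in lg1-R, against 9.13, 3.27 and 3.51 FPKM in wild type (-4.13, SE 0.67). All of these were close to the detection limit in the mutant and low to moderate in wild type. GRMZM2G027891 was lower still, with 2 counts over the lg1-R libraries and 70 over wild type, a ratio of wild type over lg1-R of 33.1 (95% interval of counting error 8.83 to 279). GRMZM2G023921 averaged 0.979 ± 0.45 FPKM in lg1-R and 10.9 ± 6.63 FPKM in wild type, and GRMZM2G153586 averaged 0.38 ± 0.131 FPKM in lg1-R and 2.64 ± 0.793 FPKM in wild type (SD, n = 3 each). GRMZM2G425482 was the most abundant of the 12 in the mutant, at 85.7, 101 and 112 FPKM in lg1-R, against 303, 266 and 215 FPKM in wild type (-1.3, SE 0.2). GRMZM2G009223 (-1.39, SE 0.22) and GRMZM2G096904 (-2.52, SE 0.42) complete the group.

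**Figure D1:**
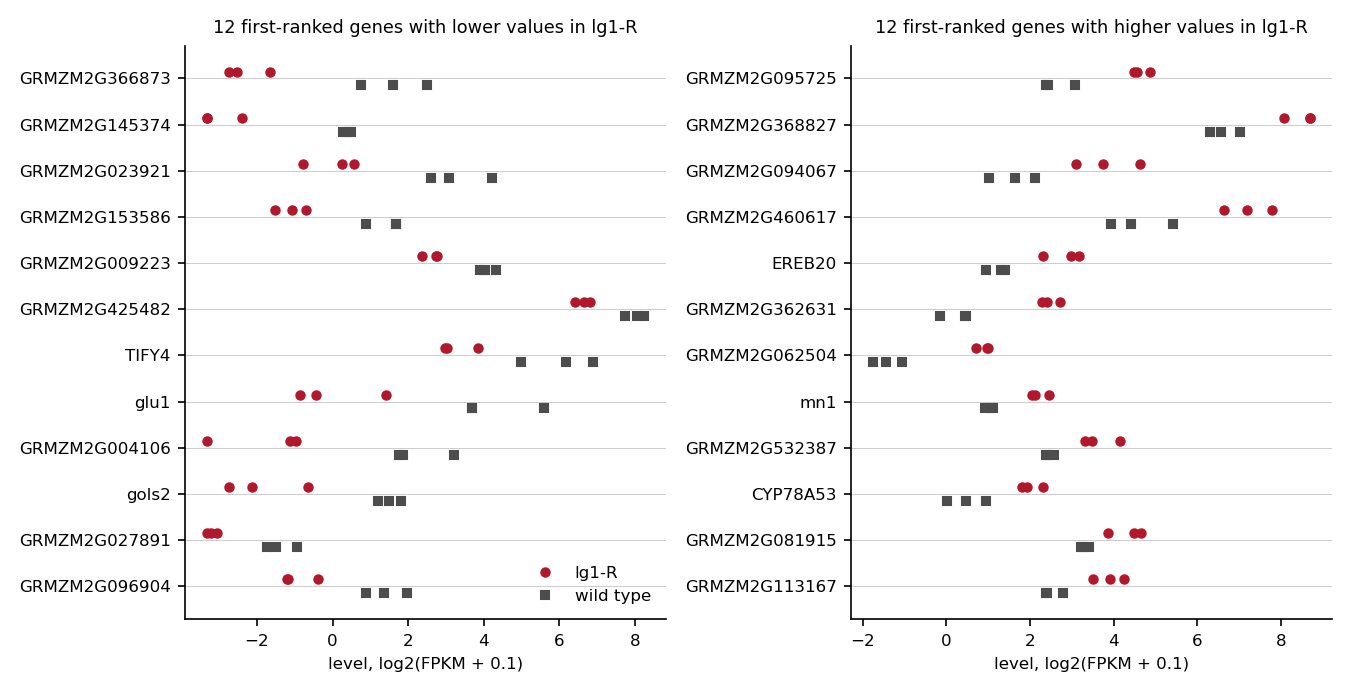
Level of each gene in each P6 library, as log2(FPKM + 0.1) on the horizontal axis, for the 12 first-ranked genes with lower values in lg1-R (left) and the 12 with higher values (right). Circles are the 3 lg1-R libraries and squares the 3 wild-type libraries, and the genotypes do not overlap for any of the 24 genes, which was a condition of their choice.

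In P7 tissue of all layers, 8 of these 12 genes were called higher in the ligule than in the other regions (the mean of blade and sheath), while edgeR called 0 lower. At an unadjusted p below 0.05, 1 was lower, and DESeq2 also called 8 as higher and 1 as lower, GRMZM2G009223. The background was 1014 of 22205 genes called (4.57%), 608 higher (2.74%) and 406 lower (1.83%). The largest of the 8 was glu1, at 522, 760 and 666 FPKM in the ligule, against 2.46, 1.54 and 2.56 FPKM in blade pieces and 14.5, 48.4 and 3.42 FPKM in sheath pieces (log2 fold change 6.43, SE 0.61, adjusted p = 0.00022). The ligule libraries stand far above all others, and sheath replicate 4 is the highest of the rest. GRMZM2G004106 averaged 193 ± 68.1 FPKM in the ligule, 2.97 ± 2 in blade pieces and 7.63 ± 3.24 in sheath pieces (5.21, SE 0.44, adjusted p = 4.3e-05; SD, n = 3 each). GRMZM2G366873 stood at 16.5, 11.2 and 24.7 FPKM in the ligule, against 0.558, 0.0711 and 0.0759 FPKM in blade pieces and 0.0252, 0.649 and 0 FPKM in sheath pieces (5.93, SE 0.77, adjusted p = 0.0017). For this gene, as for glu1, no blade or sheath library reaches the lowest ligule library.

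The remaining 5 ligule-higher genes of the group had means between 5.25 and 35.9 FPKM in the ligule. GRMZM2G153586 averaged 13.1 ± 4.83 FPKM in the ligule, against 0.369 ± 0.468 in blade pieces and 0.134 ± 0.0678 in sheath pieces (log2 fold change 5.62, SE 0.67). GRMZM2G027891 averaged 5.25 ± 0.419 FPKM in the ligule, against 0.0171 ± 0.0296 in blade pieces and 0.176 ± 0.306 in sheath pieces (6.08, SE 0.85). GRMZM2G145374 averaged 5.75 ± 2.37 FPKM in the ligule, against 0.212 ± 0.172 in blade pieces and 0.507 ± 0.66 in sheath pieces (4.03, SE 0.67). The galactinol synthase gene gols2 averaged 9.29 ± 1.21 FPKM in the ligule, against 0.853 ± 0.216 in blade pieces and 1.96 ± 0.422 in sheath pieces (2.7, SE 0.27, adjusted p = 6.2e-05). GRMZM2G023921 differed from the others in its second level, with 35.9 ± 14 FPKM in the ligule, 7.31 ± 3.98 in blade pieces and 1.35 ± 0.27 in sheath pieces (3.37, SE 0.33, adjusted p = 5.3e-05; SD, n = 3 each throughout). The calls of all 8 held in each of the 14 alternatives run for the P7 comparison. Against the sheath alone, GRMZM2G145374 missed the threshold (adjusted p = 0.063).

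The rest of the 12, TIFY4 and 3 genes with no name, had no such call. TIFY4 stood at 12.8, 17.7 and 61.4 FPKM in the ligule, against 8.01, 12.1 and 67.8 FPKM in blade pieces and 14.4, 18.1 and 150 FPKM in sheath pieces, so that replicate 5 was the highest library in each region and the regions overlap (log2 fold change -0.57, SE 1.03, adjusted p = 0.87). GRMZM2G425482 averaged 50.9 ± 29.9 FPKM in the ligule, 46.9 ± 8.33 in blade pieces and 34.7 ± 8.15 in sheath pieces (0.2, SE 0.28, adjusted p = 0.82). GRMZM2G009223 averaged 12.8 ± 0.394 FPKM in the ligule, below 19.1 ± 7.79 in blade pieces and 25 ± 1.14 in sheath pieces, with a difference that just missed the threshold (-0.9, SE 0.25, adjusted p = 0.066). GRMZM2G096904 stayed at or below 1.11 FPKM in all 9 libraries. For TIFY4 the P6 wild-type mean of 73.6 ± 43.1 FPKM exceeded its P7 ligule mean of 30.6 ± 26.8 FPKM (SD, n = 3 each), a pair of values from different stages and pieces that was not tested.

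The adaxial L1 gave a more mixed picture. Of the 11 genes of this group that could be tested there, 5 were called higher in the ligule and 2 lower, against 2.95% and 4.78% of all 18761 genes tested in that layer (7.73% in either direction). GRMZM2G004106 stood at 1210, 990 and 1044 FPKM in the L1 ligule, against 34.6, 63 and 26.9 FPKM in the L1 blade and 75.8, 15 and 59.3 FPKM in the L1 sheath (log2 fold change 4.48, SE 0.4, adjusted p = 2.2e-05). GRMZM2G153586 averaged 121 ± 28.3 FPKM in the L1 ligule, 4.58 ± 4.36 in the L1 blade and 1.19 ± 1.77 in the L1 sheath (5.79, SE 0.99, adjusted p = 0.0054), and glu1 averaged 884 ± 401, 17.4 ± 12 and 27.5 ± 29.1 FPKM in the same order (5.24, SE 0.66, adjusted p = 0.00057; SD, n = 3 each). Both had a higher mean in the ligule of this epidermal layer than in the ligule of all layers, where glu1 averaged 649 ± 120 FPKM. For glu1 the libraries overlap, at 664, 641 and 1346 FPKM in the L1 ligule and 522, 760 and 666 FPKM in that of all layers. The other L1 calls for the ligule were GRMZM2G027891 and gols2, the second resting on 0 counts in the L1 sheath and on unequal blade libraries (2.58, 0.0789 and 0.0484 FPKM). The genes called lower were TIFY4 (-2.24, SE 0.51, adjusted p = 0.015) and GRMZM2G425482 (-2.12, SE 0.51, adjusted p = 0.02). The L1 call of gols2 was lost in 9 of the 14 alternatives, that of TIFY4 in 3 (without each L1 ligule replicate), that of GRMZM2G425482 in 2 (without L1 ligule replicate 2 or 3) and that of GRMZM2G153586 in 1 (without L1 blade replicate 3), while those of glu1, GRMZM2G004106 and GRMZM2G027891 held in all 14. Against the L1 blade alone, GRMZM2G153586 (adjusted p = 0.055), GRMZM2G027891 (0.068) and gols2 (0.23) were not called higher. Against the L1 sheath alone, GRMZM2G425482 was not called lower (0.065). GRMZM2G366873 had 0 counts in all 9 L1 libraries.

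**Figure D2:**
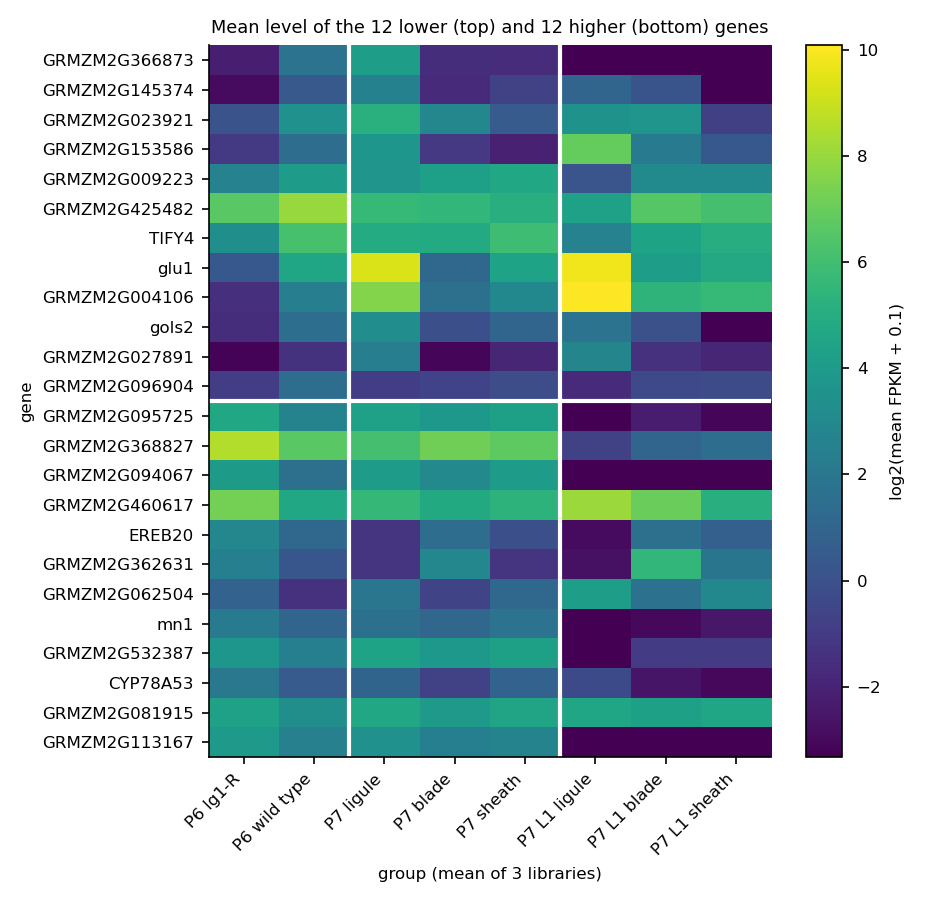
Mean level of the 12 genes with lower values in lg1-R (upper rows) and the 12 with higher values (lower rows) in the 8 groups of libraries, as log2(mean FPKM + 0.1) of 3 libraries per group. Among the upper rows, glu1 and GRMZM2G004106 are brightest in the ligule columns of both layers, and among the lower rows GRMZM2G094067 and GRMZM2G113167 have 0 counts in all L1 columns.

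The 12 genes ranked first among those with higher values in lg1-R had smaller log2 fold changes, 1.15 to 2.77, with adjusted p-values of 0.019 to 0.098. DESeq2 called all 12, against 0.386% of all genes tested, again from the libraries that set the ranking. EREB20 (GRMZM2G174834), of the AP2/ERF family of transcription factors, stood at 4.83, 8.97 and 7.82 FPKM in lg1-R, against 1.82, 2.35 and 2.56 FPKM in wild type (log2 fold change 1.78, SE 0.28, adjusted p = 0.082). The cell wall invertase gene mn1 (GRMZM2G119689), which splits sucrose outside the cell and is known for its part in kernel filling, stood at 4.02, 4.24 and 5.39 FPKM in lg1-R, against 1.8, 1.97 and 2.06 FPKM in wild type (1.32, SE 0.22, adjusted p = 0.082). CYP78A53 (GRMZM2G092823), a cytochrome P450 gene of the CYP78A family, stood at 3.7, 3.41 and 4.88 FPKM in lg1-R, against 1.29, 0.917 and 1.83 FPKM in wild type (1.64, SE 0.29, adjusted p = 0.098). In none of these genes do the genotypes overlap, which was a condition of their choice, and mn1 has the narrowest spread within each genotype. The most abundant of the group, GRMZM2G368827, stood at 412, 416 and 269 FPKM in lg1-R, against 95.4, 79.2 and 131 FPKM in wild type (1.97, SE 0.29). GRMZM2G460617 averaged 156 ± 61.1 FPKM in lg1-R and 26.5 ± 14.6 FPKM in wild type (2.7, SE 0.41), and GRMZM2G062504 averaged 1.77 ± 0.204 FPKM in lg1-R and 0.28 ± 0.092 FPKM in wild type (2.77, SE 0.45; SD, n = 3 each). GRMZM2G362631 stood at 4.76, 6.46 and 5.23 FPKM in lg1-R, against 1.28, 0.799 and 1.27 FPKM in wild type (2.35, SE 0.37). GRMZM2G094067 (2.44, SE 0.37), GRMZM2G532387 (1.32, SE 0.23), GRMZM2G081915 (1.15, SE 0.2) and GRMZM2G113167 (1.5, SE 0.27) make up the rest beside the called gene.

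At P7, edgeR called 0 of these 12 higher in the ligule of all layers (2 at an unadjusted p below 0.05, and 1 by DESeq2, GRMZM2G062504) and 2 lower. Over all genes tested there, 2.74% were called higher and 1.83% lower, so 0 of 12 higher lies near the share of all genes. The share of all genes at the unadjusted level for P7 is not given here. EREB20 stood at 0.116, 0.419 and 0.418 FPKM in the ligule, against 1.94, 2.57 and 3.5 FPKM in blade pieces and 0.494, 0.602 and 1.46 FPKM in sheath pieces (log2 fold change -2.35, SE 0.53, adjusted p = 0.023). The lowest values are those of the ligule, and the blade is the highest region. Against the blade alone EREB20 was called lower (-3.23, SE 0.58, adjusted p = 0.0051). Against the sheath alone it was not called (-1.46, SE 0.59, adjusted p = 0.31). GRMZM2G362631 had 0.478, 0.376 and 0.108 FPKM in the ligule, against 7.2, 6.04 and 8.5 FPKM in blade pieces and 0.553, 0.215 and 0.178 FPKM in sheath pieces (-2.44, SE 0.6, adjusted p = 0.035). Here the ligule lies with the sheath, and the blade stands apart. The call of EREB20 was lost in 4 and that of GRMZM2G362631 in 7 of the 14 alternatives, most of which left out 1 P7 library. In the adaxial L1 only 6 of the 12 could be tested, with 1 called higher in the ligule and 2 lower. Over all genes tested in that layer, 2.95% were higher and 4.78% lower. EREB20 and GRMZM2G362631 were again the lower ones, each with 2 counts over the 3 L1 ligule libraries. L1 blade and sheath held 265 and 89 counts of EREB20 and 1349 and 66 counts of GRMZM2G362631. For GRMZM2G362631, 64 of the 66 L1 sheath counts came from replicate 3, the difference of L1 ligule and L1 sheath alone missed the threshold (adjusted p = 0.071), and its L1 call was lost without L1 ligule replicate 1 or 3. The opposite call was GRMZM2G460617, which averaged 265 ± 53.7 FPKM in the L1 ligule, 128 ± 70 in the L1 blade and 33.2 ± 8.6 in the L1 sheath (1.93, SE 0.33, adjusted p = 0.0028; SD, n = 3 each). The called P6 gene GRMZM2G095725 averaged 19.9 ± 6.12 FPKM in the P7 ligule, 13.9 ± 4.46 in blade pieces and 19.4 ± 12 in sheath pieces, levels that did not separate the regions (0.17, SE 0.4, adjusted p = 0.91).

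The relation to the P7 ligule reached beyond the first 12 genes. Among the 50 genes ranked first with lower values in lg1-R, 49 were tested in P7 tissue of all layers, 31 were called higher in the ligule (63.3%) and 0 lower (4 at an unadjusted p below 0.05, and 2 by DESeq2, which also called 31 as higher). Among the 50 with higher values, 49 were tested, 0 were called higher (4 at an unadjusted p below 0.05, and 1 by DESeq2) and 3 lower, namely EREB20, GRMZM2G362631 and GRMZM5G822895. Of all 10098 genes with higher values tested there, 1.14% were called higher and 2.38% lower. The share of ligule-higher genes then declined along the ranking of lower values, with 41.8% of the first 100, 23.2% of ranks 101 to 200, 14.7% of ranks 201 to 400 and 7.5% of ranks 401 to 1000, against 3.53% of all 10675 genes with lower values that could be tested. In the adaxial L1, 45 of the 50 lower genes were tested, 18 were called higher in the ligule and 6 lower, and 18 of the 31 were called higher in both layers. Of all 9486 genes with lower values tested in the L1, 2.71% were called higher and 4.29% lower. GRMZM2G161154 was the most abundant of the 31, with mean levels of 151 FPKM in lg1-R and 849 FPKM in wild type at P6, and at P7 of 7514 FPKM in the ligule, 196 FPKM in blade pieces and 650 FPKM in sheath pieces. GRMZM2G453139 was called in opposite directions in the layers, higher in the ligule of all layers (log2 fold change 2.83) and lower in that of the L1 (-4.41). The 50 genes with higher values had 28 tested in the L1, with 1 called higher and 6 lower, against 2.57% and 5.39% of all 8881 such genes. Of the 66 genes that DESeq2 called lower at P6, 65 were tested in P7 tissue of all layers, where edgeR called 34 higher in the ligule (52.3%) and 0 lower, and of the 82 called higher, 81 were tested, with 0 higher and 5 lower (6.17%).

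**Figure D3:**
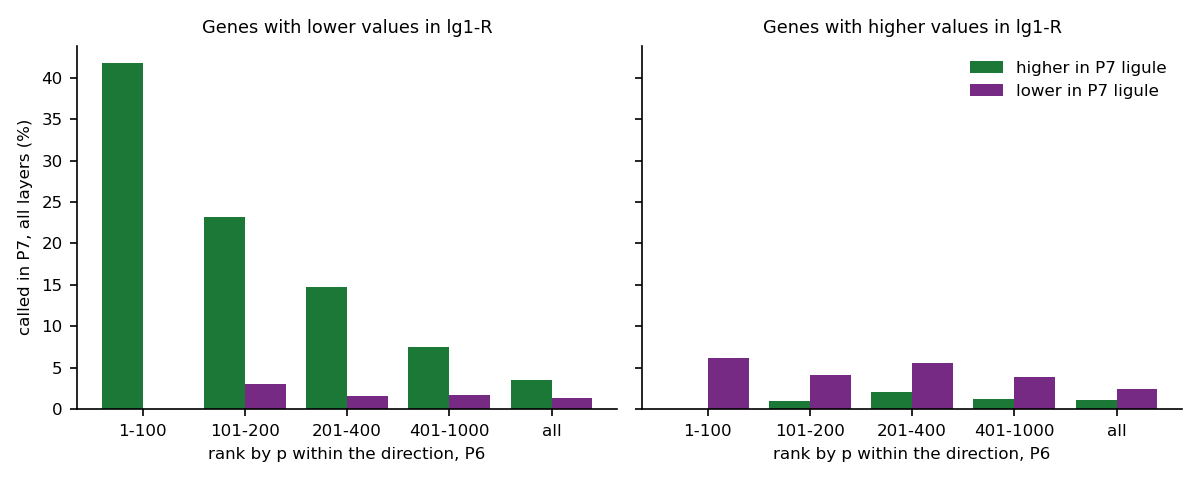
Percent of genes called higher (green) or lower (purple) in the P7 ligule of all layers than in the mean of blade and sheath, by rank of p in the P6 comparison, for genes with lower values in lg1-R (left) and with higher values (right). The green bars on the left fall from 41.8% in ranks 1 to 100 to 7.5% in ranks 401 to 1000, and the last pair of bars is all genes of that direction.

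The count of 31 stayed at 20 or more when any 1 of the 6 P6 libraries was left out of the ranking, with 20 without lg1-R replicate 2 and 24 without wild-type replicate 1, and it was 18 where no filter on low counts was used. Wild-type replicate 1 was the highest wild-type library for 42 of these 50 genes (84%), against 41.4% of all genes with lower values in lg1-R and 31.6% of all genes tested, so the size of many wild-type levels rests on that library. The part of that library in the result was not tested beyond leaving it out.

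**Figure D4:**
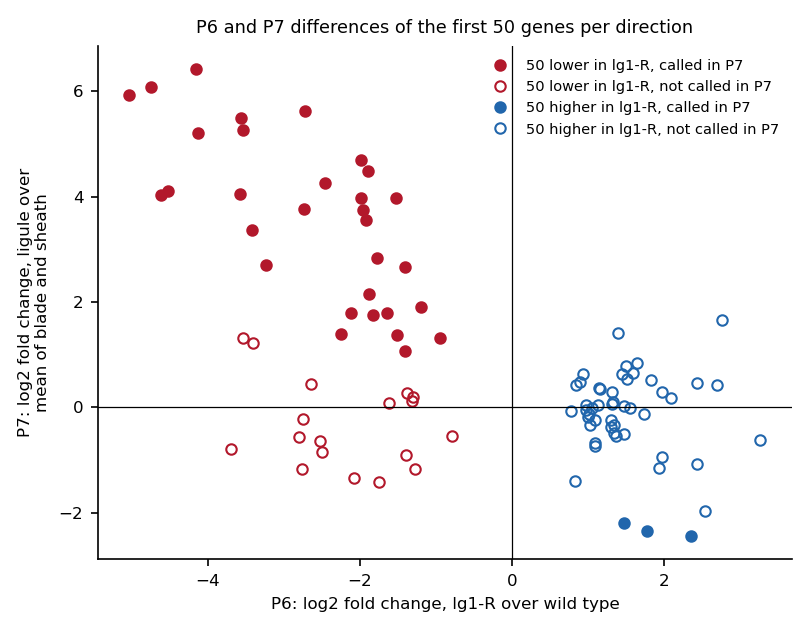
Log2 fold change of lg1-R over wild type at P6 (horizontal) against log2 fold change of the ligule over the mean of blade and sheath at P7 in all layers (vertical), for the 50 first-ranked genes of each P6 direction. Filled points were called at P7: 31 of the lower genes lie high on the left, and the 3 called among the higher genes lie below 0 on the right.

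Read the other way, the genes of the P7 ligule were set against the P6 comparison. Of the 608 genes called higher in the ligule of all layers, 492 were tested at P6, and 76.6% had lower values in lg1-R, with a median log2 fold change of -0.27, against -0.01 over all genes tested. At an unadjusted p below 0.05, 111 of them were lower (22.6%) and 7 higher (1.42%). The 387 tested genes called lower in the ligule had a median of 0.11, with 10 lower (2.58%) and 34 higher (8.79%). The 19894 genes with no P7 call had 2.4% lower and 3.71% higher. None of the ligule-higher genes was called at P6 by edgeR, while DESeq2 called 34 of them as lower and 0 as higher. Without wild-type replicate 1 the median of the ligule-higher genes was -0.12, with 64.1% lower, and without any other library it stayed between -0.27 and -0.36. Genes called higher in the L1 ligule had 9.9% lower, 6.8% higher and a median of -0.02 over 485 tested genes, against 2.47% lower, 2.85% higher and a median of -0.01 for genes with no call in that layer, so both directions were more frequent among them.

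Genes with higher values in lg1-R differed from the rest in another P7 readout, the comparison of the adaxial L1 with all layers. Of the 22334 genes tested over the 18 P7 libraries, 20.9% were called lower in the L1 and 12.8% higher. Among the 50 first-ranked genes with higher values in lg1-R, 31 of 49 were called lower in the L1 (63.3%) and 5 higher (10.2%), while among the 50 with lower values 14 of 49 were called lower (28.6%) and 10 higher (20.4%). The genes GRMZM2G094067 and GRMZM2G113167 had 0 counts in all 9 L1 libraries, against 17.1 ± 6.88 and 11 ± 3.28 FPKM in the ligule of all layers. The invertase gene mn1 stayed at or below 0.13 FPKM in every L1 library, against 1.44 to 6.04 FPKM in tissue of all layers, and the called gene GRMZM2G095725 stayed at or below 0.172 FPKM, against 7.01 to 30.9 FPKM. The count of 31 rests on lg1-R replicate 3: it was 3 when the ranking was made without that library, and 29 to 37 without any of the other 5. That replicate was the highest lg1-R library for 26 of these 50 genes (52%), against 47.7% of all genes with higher values and 62.2% of all genes tested. The part of that library's tissue make-up in the result was not tested.

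**Figure D5:**
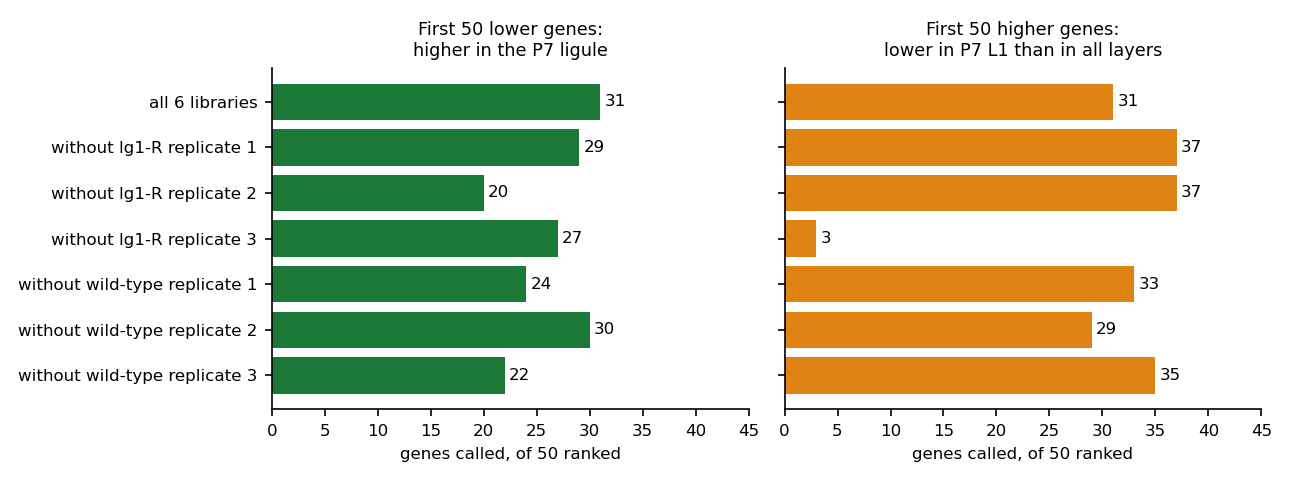
Number of genes called among the 50 first-ranked lower genes (left, higher in the P7 ligule of all layers) and the 50 first-ranked higher genes (right, lower in the P7 adaxial L1 than in all layers), with all 6 P6 libraries and with each left out of the ranking in turn. The left counts run from 20 to 31, and the right count drops to 3 without lg1-R replicate 3.

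Further named genes lower down the ranking were chosen after their values were seen, as the next 8 per direction with a name and no overlap between genotypes. They were mixed in their P7 levels, with 3 of the 8 lower genes called higher in the ligule of all layers, against 2.74% of all genes tested there. MADS34 (GRMZM2G137510), a MADS-box transcription factor gene, stood at 0.522, 0.261 and 1.3 FPKM in lg1-R, against 9.07, 3.76 and 2.27 FPKM in wild type (log2 fold change -2.73, SE 0.59, adjusted p = 0.23). At P7 it was called higher in the ligule, with 24, 24 and 19.8 FPKM, against 1.01, 0.64 and 1.08 FPKM in blade pieces and 2.71, 2.71 and 2.34 FPKM in sheath pieces (3.76, SE 0.24, adjusted p = 2e-06). The ligule libraries do not overlap those of the other regions, and the sheath stands above the blade. The L1 ligule also had it higher than the mean of L1 blade and sheath (12.3 ± 3.07 FPKM, against 0.546 ± 0.336 in the L1 blade and 4.53 ± 1.02 in the L1 sheath, adjusted p = 0.0024, SD, n = 3 each). Against the L1 sheath alone it was not called (log2 fold change 1.42, SE 0.59, adjusted p = 0.2). Myb36 (GRMZM2G056407) averaged 1.66 ± 0.52 FPKM in lg1-R and 5.45 ± 2.23 FPKM in wild type (-1.64, SE 0.39, adjusted p = 0.28), and was called higher in the P7 ligule of all layers (1.79, SE 0.31, adjusted p = 0.0036). The serine acetyltransferase gene sat2 (GRMZM2G013430), of cysteine synthesis, averaged 0.598 ± 0.244 FPKM in lg1-R and 2.76 ± 0.331 FPKM in wild type (-2.12, SE 0.37, adjusted p = 0.098), and was also called higher there (1.79, SE 0.35, adjusted p = 0.0092).

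The other 5 lower genes with a name had no ligule call in all layers. The brassinosteroid gene Dwf4 (GRMZM2G065635), which encodes a hydroxylase of the synthesis pathway, stood at 0.217, 0.139 and 0.141 FPKM in lg1-R, against 0.46, 1.05 and 0.471 FPKM in wild type (log2 fold change -1.87, SE 0.51, adjusted p = 0.39). NAC1 (GRMZM2G347043) averaged 0.306 ± 0.101 FPKM in lg1-R and 1.84 ± 1.59 FPKM in wild type (-2.56, SE 0.64, adjusted p = 0.33), with a wide spread in wild type set by replicate 1 (3.66 FPKM). UGlcAE (-0.79, SE 0.17), cp29 (-1.03, SE 0.28) and rth3 (-0.86, SE 0.22), named for a mutant without root hairs, had smaller differences, and UGlcAE was called lower in the L1 ligule (-1.55, SE 0.37, adjusted p = 0.021).

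The named genes with higher values included pal3 (GRMZM2G074604), a phenylalanine ammonia-lyase gene at the entry to phenylpropanoid and lignin synthesis, at 86, 71 and 112 FPKM in lg1-R, against 39.8, 40.5 and 59.5 FPKM in wild type (log2 fold change 1.03, SE 0.21, adjusted p = 0.19). PEAMT (GRMZM2G122296), which methylates phosphoethanolamine on the way to choline, stood at 20.3, 27.8 and 24.3 FPKM in lg1-R, against 7.19, 8.65 and 14.4 FPKM in wild type (1.37, SE 0.26, adjusted p = 0.13). ATPP2-B1 (GRMZM2G099376), named for an Arabidopsis phloem protein gene, averaged 10.2 ± 2.75 FPKM in lg1-R and 3.96 ± 0.555 FPKM in wild type (1.47, SE 0.28, adjusted p = 0.14). ZCN3 (GRMZM2G338454), from the family of phosphatidylethanolamine-binding proteins that includes flowering signals, stood at 10.8, 13.6 and 30.1 FPKM in lg1-R, against 4.5, 8.67 and 6.15 FPKM in wild type (1.62, SE 0.39, adjusted p = 0.29). Both ATPP2-B1 and ZCN3 had 0 counts in all 9 L1 libraries. The group is completed by thi1 (2.54, SE 0.49), FIP1 (1.45, SE 0.33), ERF1 (0.85, SE 0.2) and MYB166 (2.02, SE 0.49). None of the 8 had a ligule call in all layers by edgeR (1 was lower at an unadjusted p below 0.05 and 1 by DESeq2), and pal3 was called lower in the L1 ligule (-1.72, SE 0.27, adjusted p = 0.0014).

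No member of the 23 gene lists passed the edgeR test at P6, against 1 gene of 21249. The list counts below are at an unadjusted p below 0.05, where 3.73% of all genes tested were higher and 2.86% lower. Among transcription factors, the YABBY, KANADI and HD-ZIP III list, whose genes set the upper and lower leaf sides, had 14 tested members with a median log2 fold change of 0.23, 3 of them higher and 0 lower at an unadjusted p below 0.05 and 0 called by DESeq2. Its first member, YAB11, averaged 26.1 ± 2.6 FPKM in lg1-R and 16.1 ± 3.65 FPKM in wild type (0.79, SE 0.2, adjusted p = 0.35; SD, n = 3 each). The SBP-box list, the family of lg1, had 20 tested members, a median of 0.09, 1 higher and 2 lower at that level and 0 called by DESeq2. Its sbp2 averaged 5.79 ± 0.864 FPKM in lg1-R and 11.9 ± 2.2 FPKM in wild type (-0.93, SE 0.26, adjusted p = 0.39). The bHLH list had 29 tested members with 5 higher and 7 lower (median -0.27, 0 by DESeq2), the AP2/EREB list 24 with 3 higher and 3 lower (median 0.04), of which DESeq2 called ERF1 and EREB20 as higher, and the MYB list 31 with 2 higher and 3 lower (median -0.06), of which DESeq2 called Myb36 as lower. The NAC list (7 tested, 1 higher and 1 lower, median 0.01) and the MADS-box list (8 tested, 2 higher and 1 lower, median 0.22) each had 1 gene called lower by DESeq2, NAC1 and MADS34. The homeobox list (18 tested, median 0.04) and the LOB domain list (1 tested, -0.05) had 0 at this level and 0 by DESeq2. The KNOX and repressor list (6 tested, 1 lower, median 0.08) and the growth-regulating factor list (17 tested, 2 higher, median 0.17) also had 0 by DESeq2.

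In the hormone lists, too, edgeR called 0 genes. The auxin list had 45 tested members with 5 higher and 0 lower (median 0.02), led by ARF30, an auxin response factor gene and the member called by DESeq2, at 116 ± 48.4 FPKM in lg1-R and 50.2 ± 14.9 FPKM in wild type (log2 fold change 1.36, SE 0.34, adjusted p = 0.35). The auxin transporter gene PIN1a, also in the ligule and boundary list, averaged 78.1 ± 2.92 FPKM in lg1-R and 50.6 ± 17.3 FPKM in wild type (0.75, SE 0.24, adjusted p = 0.51). That list had 19 tested members, 2 higher and 0 lower (median 0.21, 0 by DESeq2). The cytokinin list had 24 tested members with 2 higher and 0 lower (median 0.03), and DESeq2 called CKX6, a cytokinin oxidase gene (1.27, SE 0.33, adjusted p = 0.37 by edgeR). The jasmonate and lipoxygenase list had 19 with 1 higher and 4 lower (median 0), among them lox6 (-1.26, SE 0.43), lox10 (-1.2, SE 0.45), TIFY1 (-1.39, SE 0.52) and ts1 (-0.9, SE 0.31), a lipoxygenase gene of tassel sex determination, and 0 by DESeq2. TIFY4, described above and called lower by DESeq2, is not in this list, which was matched by other names. The brassinosteroid list (3 tested, 1 lower) and the gibberellin list (4 tested, 0) had 0 by DESeq2.

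The lignin list had the largest median of the lists with more than 1 tested member, 0.58 over 7 tested members, with 3 higher and 0 lower at an unadjusted p below 0.05 (pal3, 4CL and cad) and pal3 called by DESeq2. The cell wall loosening list (6 tested, 2 higher, median -0.15), the cell wall synthesis list (11 tested, 0, median 0.14), the cell cycle list (20 tested, 1 higher, median 0.08), the histone list (9 tested, 2 higher and 1 lower, median 0.14) and the cytosolic ribosomal protein list (32 tested, 0, median -0.01) had 0 called by DESeq2. The histone values rest on lg1-R replicates that differ widely, with H4C13 at 2564 ± 1819 FPKM in lg1-R and 1082 ± 124 FPKM in wild type.

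Markers of cell types and RNA quality were summed per library. The 26 photosynthetic markers gave 224, 251 and 410 FPKM in lg1-R, against 651, 404 and 367 FPKM in wild type. Of 20 tested, 1 was higher and 3 lower at an unadjusted p below 0.05 (median -0.45, 0 by DESeq2). The sum is set largely by cp29, described above among the lower genes, and CYPPDKZM2. Their means were 81.2 and 105 FPKM in lg1-R, against 172 and 147 FPKM in wild type. Of the tested members, lhcb5, pck2 and psad1 had higher values in lg1-R. Wild-type replicate 1 holds the highest sum, the library that was also highest for 42 of the 50 lower genes, and the genotypes overlap. Sums of 6 epidermis markers were 265, 273 and 281 FPKM in lg1-R, against 317, 278 and 265 FPKM in wild type. Sums of 10 meristem markers were 14.2, 15.7 and 17.6 FPKM in lg1-R, against 11.9, 16.8 and 15.8 FPKM in wild type, with knox3 at 0 in all 6 libraries. Sums of 9 vascular markers were 39, 37.8 and 61.6 FPKM in lg1-R, against 40.3, 43.3 and 44.2 FPKM in wild type, and the 4 tested had a median log2 fold change of -0.14. The stomatal marker pan1 stood at 8.13, 5.56 and 9.02 FPKM in lg1-R, against 13.9, 6.72 and 6.5 FPKM in wild type. Sums of 18 heat shock and RNA quality genes were 2392, 2322 and 2586 FPKM in lg1-R, against 2781, 2179 and 2221 FPKM in wild type. The photosynthetic gene pep1 (GRMZM2G083841) and the stress gene Lea14A were also at 0 in all 6, whereas a second entry of that name, Pep1 (GRMZM5G899080), averaged 7.13 FPKM in lg1-R and 9.44 FPKM in wild type. At an unadjusted p below 0.05, 0 of 5 tested epidermis markers, 1 of 5 meristem markers (higher), 1 of 4 vascular markers (lower) and 4 of 10 heat shock and quality genes (1 higher and 3 lower) passed, and DESeq2 called 0 of them. Over all genes tested at P6, 3.73% were higher and 2.86% lower at that level. Within lg1-R, replicate 3 had the highest value for every marker set. The genotypes overlap in each of these sums, and the part of these markers in the results was not tested.

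The mutation lies on chromosome 2, and DNA that comes with a mutant allele can differ near it, so genes close to lg1 were counted apart. Within 100 reference genes on either side of lg1, DESeq2 called 2 of 79 genes, lg1 included, as lower (GRMZM2G010555 and GRMZM2G023921) and 0 as higher. Over all genes tested it called 0.311% lower and 0.386% higher. Without lg1, edgeR tested 78 genes there and called 0. At an unadjusted p below 0.05, 8 of these passed (10.3%), 4 lower and 4 higher. The rest of that chromosome had 100 of 1473 (6.79%), and the other chromosomes had 840 of 11695 (7.18%). Genes with no position in the reference table had 453 of 8002 (5.66%) and could not be placed in or out of the window. Among the first-ranked genes these were GRMZM2G027891, GRMZM2G096904, GRMZM2G460617, GRMZM2G362631, GRMZM2G532387 and GRMZM2G113167. Of the first-ranked genes with a position, GRMZM2G023921 lies in that window, 79 reference genes from lg1. GRMZM2G153586, GRMZM2G062504 and mn1 lie on chromosome 2 outside it. The lipoxygenase gene lox6 lies 5 genes from lg1. For lox6 and GRMZM2G023921 an effect of the linked region and one of the mutation cannot be told apart. The extent of any linked region was not tested.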

How the data were processed

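For each library the authors deposited expected counts, which are estimated and need not be whole, and FPKM values, both for 109715 gene identifiers. TopHat2 2.0.10 and Cuffdiff 2.1.1 are named, per the submitters' processing notes, with no role stated. Build and annotation: not given in the sources used here. The expected counts were rounded before testing. Near-identical paralogs and, with strandedness not stated, antisense partners can share reads. Gene names were looked up in a reference table (assembly Zm-B73-REFERENCE-NAM-5.0). There, 1 locus was found for 18259 identifiers, and 2541 carried a name.

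Genes were tested with edgeR 4.0.16 (robust quasi-likelihood fits with TMM factors, run in R 4.3.3) after filterByExpr at a minimum count of 10 and total of 15, and with a Benjamini-Hochberg threshold of 0.05, separately for the 6 P6 libraries, the 9 P7 libraries of each layer, and the 18 P7 libraries for the layers. For the SE, the size of the log2 fold change was divided by the root of its F value. At P7 the ligule was set against the mean of blade and sheath. Alternatives were DESeq2 1.42.0, limma 3.58.1 (pseudocount 1 or 0.1 on log2 FPKM, genes at 1 FPKM or more in 3 libraries), RLE factors, testing without a filter, the replicate number as a block, leaving out each library, and a fit of all 24 libraries. Figures used matplotlib 3.10.9 in Python 3.11.15.

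The genes described were the 12 with the smallest p in each direction whose genotypes do not overlap, called or not, plus 10 genes named for the ligule, its boundary or leaf patterning. The lists of 50 genes, the next 8 named genes and the comparison of layers were added after results were seen. Members and gene lists were chosen with earlier results of these data known. Libraries pooled 5 to 6 plants each. Replicate numbers were shared between genotypes and between P7 regions, and libraries were treated as independent. Replicate pairs differed by more than counting error (chi-square per degree of freedom 12.8 to 83.6), and intervals and floors cover counting error only.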

Additional observations from a re-analysis of the deposited data

How the results depend on the processing

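The number of genes called at P6 was 1 with edgeR and with RLE factors, 148 with DESeq2, 482 without the filter on low counts, 9 and 6 with limma on log2(FPKM + 1) and log2(FPKM + 0.1), 0 with limma and no filter, 0 in the fit of all 24 libraries and 30 at an adjusted p of 0.1. It ranged from 0 to 58 when 1 library was left out, with 58 without wild-type replicate 3 and 43 without lg1-R replicate 3, and the cause was not tested. Limma moved the median of all genes to -0.1 and -0.11, against -0.01. With the replicate block 4 genes were called at P6, 2 higher and 2 lower, but same-numbered libraries did not deviate together (correlations of 0.02, 0.04 and -0.17). Among P7 libraries of all layers such correlations were 0.41, 0.35 and 0.23 between blade and ligule, but -0.45 to 0.27 in pairs with the sheath, and in the L1 -0.05 to 0.04. The P7 block gave 759 calls in all layers and 1258 in the L1, with 30 and 19 of the 50 lower genes ligule-higher. Of the 24 genes it ended the call of GRMZM2G362631 in all layers (adjusted p = 0.06) and added GRMZM2G009223 in the L1 (0.049).

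At P7, the ligule calls of all layers were 1654 with DESeq2 and 1890 with no filter, and 639 to 1223 with 1 library left out, against 1014. In the L1 they were 2237, 2317 and 826 to 1439, against 1451. With DESeq2, 47 of the 148 P6 calls were also P7 ligule calls of all layers and 50 of the L1. It was 140 and 147 of 482 with no filter, 5 and 4 of 9 with limma, and 1 of 4 in all layers with the replicate block. These counts ignore direction. With edgeR, 4.57% of all genes tested had a P7 call in all layers and 7.73% in the L1, a share not computed for the alternatives. In the L1, edgeR called 20 higher and 9 lower of the P6 genes lower by DESeq2. Of those higher by DESeq2 it called 2 higher and 10 lower.

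Of the 50 lower genes, 18 were ligule-higher when ranked with no filter and 20 to 30 with 1 P6 library left out. In the L1 the count was 11 with limma and no filter, 9 with a call in both pairwise comparisons, and 11 to 17 with 1 P6 library left out. Of the 50 higher genes, 17 were lower in the L1 when ranked with no filter, 7 in the fit of all 24 libraries and 3 to 37 with 1 library left out. The median of the P7 ligule genes at P6 ran from -0.36 to -0.12 with 1 library left out.

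Some differences near 0 changed sign, and their span with 1 library left out is given. At P6 it was -0.11 to 0.81 for lg3, -0.55 to 0.16 for lgn and 0 to 0.42 for rs2. At P7 in all layers it was -0.34 to 0.43 for GRMZM2G425482, -1.5 to 0.32 for TIFY4, -0.13 to 0.47 for GRMZM2G095725, -0.01 to 0.96 for GRMZM2G460617, -0.2 to 0.49 for mn1, -0.19 to 0.67 for GRMZM2G532387 and -0.11 to 0.9 for GRMZM2G081915. In the L1 it was -5.63 to 2.24 for GRMZM2G368827 and -0.67 to 0.41 for GRMZM2G081915, the second also at 0 with limma and -0.04 with the replicate block. Not run was the search of promoters for the GTAC core, since no promoter sequence was used here, and tests of blade against sheath are not given. With 3 libraries a group, low counts in the mutant and 1 wild-type library above the others limit the precision of the P6 values.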
